A study of Mus musculus with 40 samples.

Results

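The subcortical maternal complex and its companion maternal-effect genes were described here as 9 genes: Nlrp5, Ooep, Padi6, Tle6, Khdc3, Nlrp2, Nlrp14, Zar1 and Zbed3. They were to be found as loci of the RNA table that carry the gene's symbol and overlap it on the same strand, and this found 6 of the 9, each at 1 locus, among 14062 genes with such a locus and 38540 loci in all. The other 3 were placed after the table had been looked at, with their mean levels in view, and their calls are counted apart from those of the 6. Khdc3 was taken from the locus that carries its identifier ENSMUSG00000092622 under the symbol 2410004A20Rik. Tle6 was taken from the minus-strand locus that spans it and that the table names Tle2. Ooep was taken from a minus-strand locus that spans both Ooep and Dppa5a and is named Dppa5a, so the values given for Ooep cannot be separated from Dppa5a.

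The series compared germinal-vesicle oocytes, which are fully grown oocytes before meiotic maturation, of 3 genotypes. These were control, a conditional knockout of G9a (G9a cKO) and a conditional double knockout of G9a and Glp (G9a-Glp cDKO, here cDKO). Ehmt2 encodes G9A and Ehmt1 encodes GLP, partner enzymes that dimethylate histone H3 at lysine 9, the mark written H3K9me2. Each sample pooled 100 to 200 oocytes from mice aged 22 to 25 days. RNA was measured in 3 controls and 3 G9a cKO libraries titled GKAO, and in 3 controls and 2 cDKO libraries titled GKAQ. For RNA, mutants were compared with controls of their own title prefix. H3K9me2 was measured in 2 libraries per genotype, titled without such a prefix. The same 2 H3K9me2 controls served for both mutants, so those comparisons are neither matched by prefix nor independent of each other. The promoter that drives Cre, and whether libraries came from separate animals, are not given in the sources used here. The spread between these libraries may therefore be technical. Of the p-values below, only those from a locus's own variance measure that spread at the locus. Those of limma rest on a spread fitted over all loci.

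The subcortical maternal complex is a large protein assembly under the surface of the mammalian oocyte, built while the oocyte grows and kept through the first cleavages. NLRP5 (also called MATER), OOEP (FLOPED), TLE6 and KHDC3 (FILIA) are its founding members, and PADI6, NLRP2, ZBED3 and NLRP14 have been assigned to it or found to act with it. Loss of several of these from the oocyte stops the embryo at early cleavage, which is what maternal effect means. ZAR1 is a separate maternal-effect protein that binds stored mRNA.

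The RNA libraries were scaled to totals of 1458868 to 2399680 reads. Ehmt1 had 104 to 173 reads in control and G9a cKO libraries and 31 to 36 in cDKO. Ehmt2 was too shallow to check the labels: it had 9 to 13 reads in GKAO controls, 5, 11 and 2 in the G9a cKO libraries, 8 to 30 in GKAQ controls and 5 in each cDKO library, and G9a cKO replicate 2 lay within the control range. All 12 oocyte markers, among them Zp1, Gdf9 and Figla, had a mean of at least 10 RPM (reads scaled to the library total). At a limma adjusted p under 0.05, 1 of the 12 was higher in G9a cKO, against 1.05% of all loci. This was Zp2 (log2 fold change 0.15, adjusted p = 0.0332). In cDKO 4 were higher and 3 lower, against 4.32% and 2.02% of all loci. They included Gdf9 (-0.26, limma adjusted p = 1.09e-09), Zp2 (0.32, 2.85e-09), Zp3 (0.36, 2.77e-08) and Kit (-0.38, 0.000186). With each locus's own variance, 0 of the 12 passed in G9a cKO and 3 in cDKO. Of the 12, 8 are at least as abundant as Nlrp2, 3 of them higher and 2 lower in cDKO. Among all loci that abundant, 9.65% were higher and 30.4% lower. Between the control series 1 of the 12 was higher in GKAQ and 3 lower, against 1.96% and 1.91% of all loci. Of loci that abundant 50.4% passed there. Zp2 was at 2893 RPM in GKAO controls and 1411 in GKAQ controls (limma adjusted p = 7.3e-129). Of 13 granulosa cell markers 2 reached a mean of 10 RPM. The summed level of all 13 was 189 to 200.4 RPM in GKAO controls, 140.3 to 166 in G9a cKO, 134 to 166 in GKAQ controls and 123 to 147 in cDKO. Nr5a2 alone had a mean of 122 RPM in GKAO controls and 79.5 in GKAQ controls. At a limma adjusted p under 0.05, 2 of the 13 were higher in cDKO than in GKAQ controls and 0 lower. These were Inha (2.14 RPM in controls and 8.46 in cDKO, limma adjusted p = 0.00472) and Fshr (1.86 and 7.22, adjusted p = 0.03). Of all loci 4.32% were higher there at that threshold. No library had more than 3 reads for any of the 4 stromal genes matched, and both blood genes matched had 0.

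The 9 loci were among the most abundant of the oocyte. By reads, which also depend on transcript length, Zbed3 was rank 2 of 38540, Nlrp5 rank 6, Padi6 rank 8 and Nlrp14 rank 10, and the lowest, Nlrp2, was rank 425. The 6 loci found by symbol together took 1.61% ± 0.0665 (SD, n = 3) of the reads in GKAO controls and 1.68% ± 0.0492 (SD, n = 3) in G9a cKO. They took 1.46% ± 0.031 (SD, n = 3) in GKAQ controls and 1.62% ± 0.0391 (SD, n = 2) in cDKO. No exon lengths were used, so the genes are not ranked against each other per length.

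Below, called means an adjusted p under 0.05 in limma, adjusted by the Benjamini-Hochberg method across the 38540 loci. In G9a cKO 2 of the 6 loci found by symbol were called, Nlrp5 and Padi6, against 1.79% of all loci and 11.5% of the 425 loci at least as abundant as Nlrp2 (4.24% higher and 7.29% lower). In cDKO 3 of the 6 were called, Padi6, Zbed3 and Nlrp5, against 6.34% of all loci and 40% of the abundant ones (9.65% higher and 30.4% lower). None of the 3 loci placed by identifier or position was called in either mutant, with 1 of them, Ooep, under an unadjusted p of 0.05 in G9a cKO and 0 in cDKO. In alternatives, Ooep was called in G9a cKO in 4 of 20 and Tle6 in cDKO in 1. Every one of the 9 fitted changes was smaller than 0.25 on the log2 scale in both mutants. Of the abundant loci, 90.8% in G9a cKO and 62.6% in cDKO changed by less than that.

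The calls in the mutants depend on how the variance was estimated. limma replaced each locus's variance by a value that, for these genes, followed the trend over all loci more than the locus's own libraries. For Nlrp5 this fitted SD was 0.0416 on the log2 scale, where the spread of its own libraries within groups was 0.0871. For Padi6 the fitted SD was 0.0446 and its own spread 0.0824, and for Zbed3 these were 0.0385 and 0.0595. For Zar1 the fitted SD of 0.0958 was above its own spread of 0.0533. With each locus's own variance, an alternative added after seeing the data, no member was called in either mutant, and 3 members in G9a cKO (Nlrp5, Padi6 and Ooep) and 2 in cDKO (Padi6 and Zbed3) had an unadjusted p under 0.05. The same 0 came from limma without trend and robust moderation, from quantile normalization and, over the 6 loci found by symbol, from voom weights. The called changes of these genes in the mutants are therefore given with both adjusted values.

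**Figure D1:**
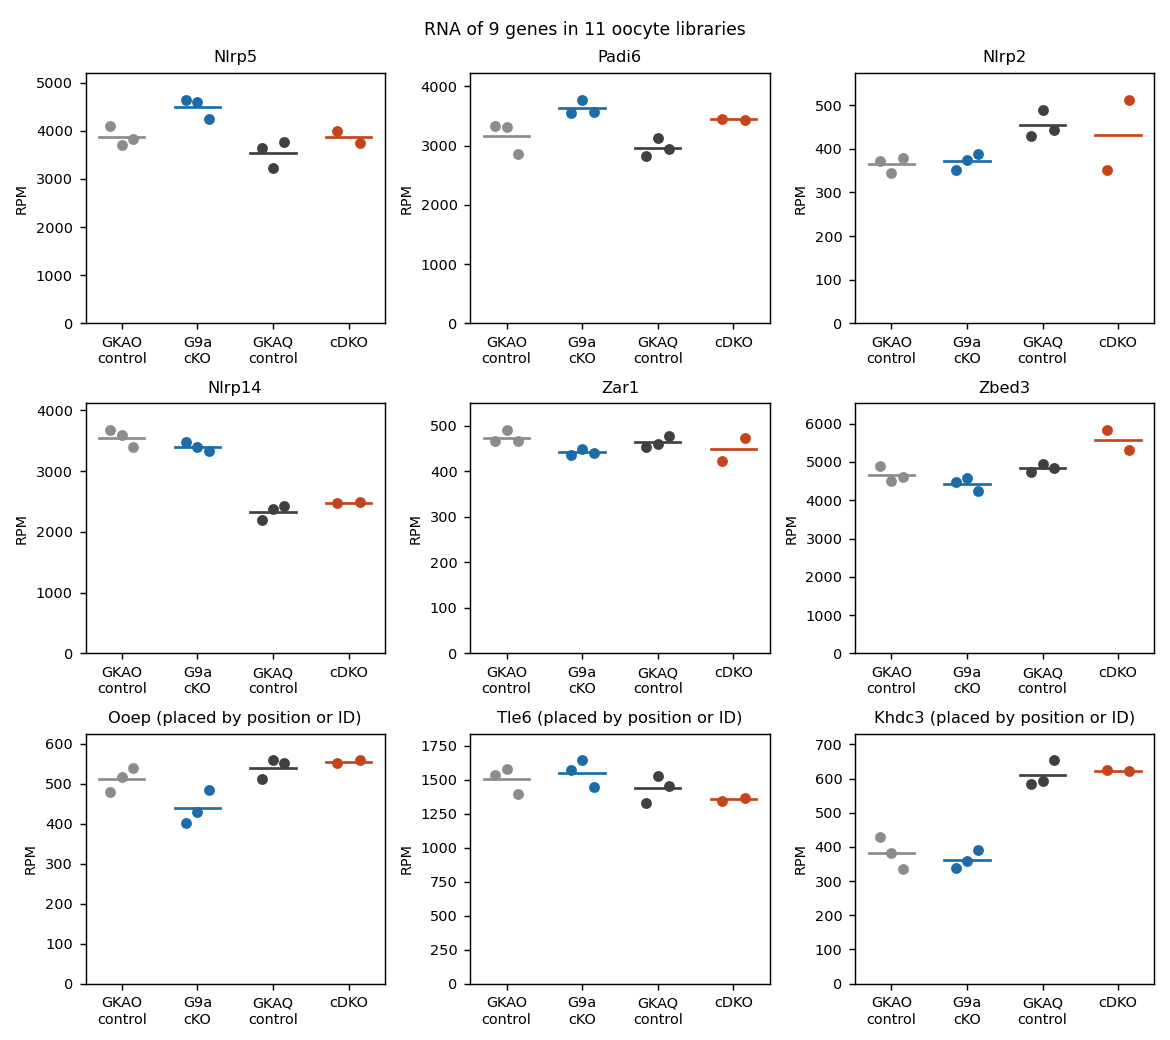
RNA level of each gene in RPM (vertical axis, from 0) in each of the 11 libraries (points), with group means (bars). Nlrp14 and Khdc3 separate the GKAO from the GKAQ libraries, whereas mutant and control means of the same prefix lie close together.

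The upstream sequences of the 3 loci called in a mutant are shown because they can be searched for binding elements of 2 regulators of oocyte genes, the E-box CANNTG bound by FIGLA and the element TAATTG bound by NOBOX. Each is the 250 bases before a RefSeq gene start (GRCm38), with matches on either strand in capitals. RefSeq gives 2 starts for Nlrp5, 1 for Padi6 and 3 for Zbed3, and 1 start of each gene is shown. Nlrp5 lies on the plus strand at chr7:23385639-23385888, Padi6 on the minus strand at chr4:140742644-140742893 and Zbed3 on the plus strand at chr13:95323355-95323604.
Nlrp5: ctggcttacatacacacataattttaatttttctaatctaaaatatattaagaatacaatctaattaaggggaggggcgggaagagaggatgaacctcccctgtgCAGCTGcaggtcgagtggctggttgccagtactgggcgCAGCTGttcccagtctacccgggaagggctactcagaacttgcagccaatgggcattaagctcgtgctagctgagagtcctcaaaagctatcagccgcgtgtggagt
Padi6: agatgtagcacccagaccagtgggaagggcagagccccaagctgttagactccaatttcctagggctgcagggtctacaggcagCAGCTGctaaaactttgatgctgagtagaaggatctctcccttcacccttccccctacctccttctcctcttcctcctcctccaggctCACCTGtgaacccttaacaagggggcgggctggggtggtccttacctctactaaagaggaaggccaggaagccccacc
Zbed3: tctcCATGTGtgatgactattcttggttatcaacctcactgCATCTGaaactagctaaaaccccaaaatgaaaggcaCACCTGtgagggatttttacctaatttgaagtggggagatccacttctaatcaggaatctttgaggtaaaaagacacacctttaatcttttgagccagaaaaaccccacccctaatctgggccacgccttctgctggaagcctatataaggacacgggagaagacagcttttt
CANNTG matched at 2 places before Nlrp5, 2 before Padi6 and 3 before Zbed3. It occurs in 66.2% of the 32851 RefSeq upstream sequences of that length. TAATTG matched none of the 3 and occurs in 7.17% of all upstream sequences. The match is a description of letters. The RefSeq starts shown lay 472 bases from the start of the Nlrp5 locus, 0 from Padi6 and 854 from Zbed3.

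Nlrp5 encodes the core NLR protein of the complex, and its locus spans chr7:23385417-23441922. It stood at 4096, 3710 and 3821 RPM in GKAO controls and at 4642, 4605 and 4243 in G9a cKO. All 3 mutant libraries lay above all 3 controls. The fitted change was 0.21 on the log2 scale (SE 0.0339), a rise of 16%, with an adjusted p of 2e-07 by limma and of 0.263 with the locus's own variance. In GKAQ controls Nlrp5 was at 3643, 3228 and 3773 RPM and in cDKO at 3989 and 3747, so that the groups overlapped. The change was 0.13 (SE 0.0379), with an adjusted p of 0.0183 by limma and 0.556 with its own variance. Without GKAQ control replicate 2 the cDKO change fell to 0.06 (limma adjusted p = 0.699), and without cDKO replicate 1 to 0.08 (adjusted p = 0.447). With the title number as a block the cDKO change rests on number 55 alone, with 1 control and 1 cDKO library, and it was 0.22. Within each of the 2 title numbers that hold both GKAO genotypes the difference was 0.25 and 0.21.

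Padi6 encodes a peptidylarginine deiminase-family protein needed for the oocyte's cytoplasmic lattices, fibrous structures of the egg cytoplasm. Its locus is at chr4:140726302-140742643. It stood at 3331, 3317 and 2859 RPM in GKAO controls and at 3547, 3768 and 3574 in G9a cKO. It was at 2818, 3128 and 2940 RPM in GKAQ controls and at 3453 and 3437 in cDKO. Mutant and control libraries did not overlap in either comparison. The change was 0.20 (SE 0.0364) in G9a cKO, with an adjusted p of 1.85e-05 by limma and 0.263 with its own variance. It was 0.22 (SE 0.0407) in cDKO, with an adjusted p of 8e-06 by limma and 0.26 with its own variance. Within the 2 GKAO title numbers the G9a cKO difference was 0.09 and 0.36. Without GKAO control replicate 3, the lowest control, it was 0.13 (limma adjusted p = 0.0784). With the title number as a block the cDKO change was 0.14 (limma adjusted p = 0.242).

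Zbed3 encodes a zinc-finger protein assigned to the complex, and its locus spans chr13:95322751-95350803. That locus runs past the end of the RefSeq gene (95323605 to 95337842), and reads beyond the gene were not counted apart. An opposite-strand locus overlaps it by 121 bases. Zbed3 stood at 4887, 4490 and 4602 RPM in GKAO controls and at 4474, 4570 and 4251 in G9a cKO. These groups overlapped, and the change of -0.07 (SE 0.0314) was not called (limma adjusted p = 0.23). In GKAQ controls it was at 4745, 4952 and 4848 RPM and in cDKO at 5825 and 5303. Both cDKO libraries lay above the 3 controls. The change was 0.20 (SE 0.0351), with an adjusted p of 2.5e-06 by limma and 0.15 with its own variance. Title number 55 is the one GKAQ number with both genotypes, and there the difference was 0.10. With that number as a block the change was 0.10 (limma adjusted p = 0.323), with centring on detected loci it was 0.10 (adjusted p = 0.0587), and without cDKO replicate 1 it was 0.13 (adjusted p = 0.0381).

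The effects themselves were compared by an interaction term. Zbed3 was the 1 member called, with a cDKO effect 0.27 above the G9a cKO effect (SE 0.0471, limma adjusted p = 1.32e-05). The background for this contrast was 1.08% of all loci and 19.8% of the abundant ones. With its own variance the adjusted p was 0.215. For Nlrp5 the difference was -0.09 (95% interval -0.187 to 0.0125) and for Padi6 0.02 (-0.0866 to 0.127), so neither was shown to differ between the mutants. The difference was 0.15 for Nlrp14 and 0.26 for Ooep, both under an unadjusted p of 0.05 but not called (limma adjusted p = 0.169 for each). It was 0.11 for Khdc3, -0.12 for Nlrp2, -0.13 for Tle6 and 0.05 for Zar1, and none of these was called.

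**Figure D2:**
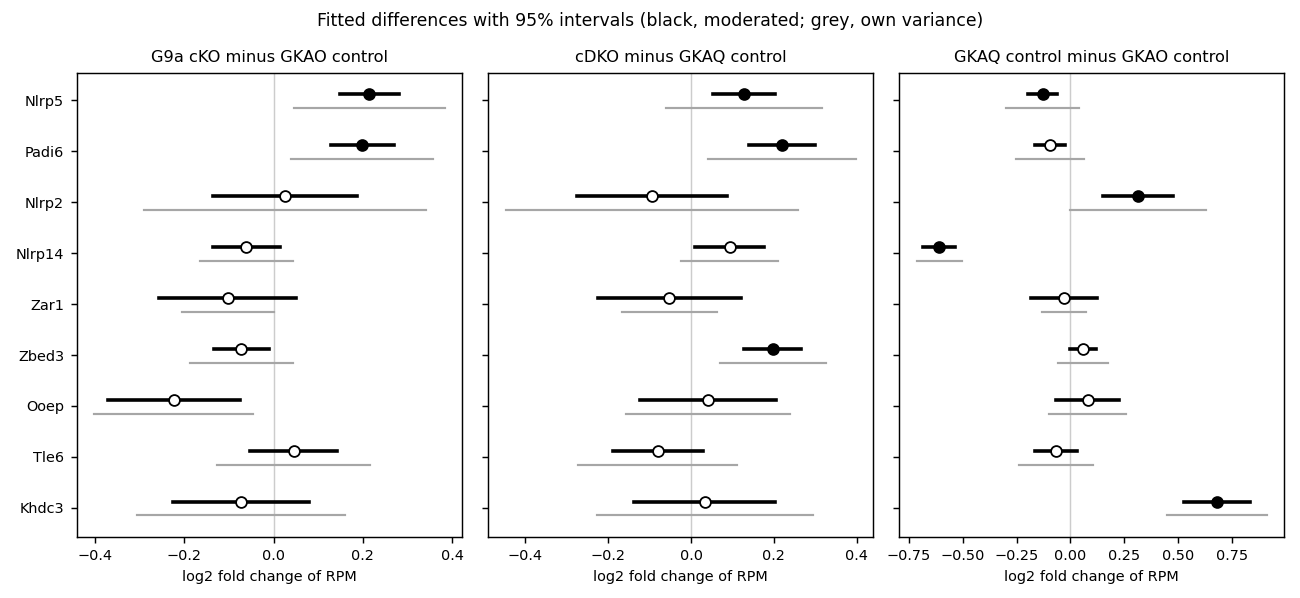
Log2 fold change of RPM (horizontal axis) for each gene in 3 comparisons, with 95% intervals from the moderated fit (black; filled points, adjusted p under 0.05) and from each locus's own variance (grey). The 2 widest departures from 0 are between the control series, Khdc3 at 0.68 and Nlrp14 at -0.61.

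Nlrp14, another NLR protein of the oocyte, is at chr7:107166990-107198093, a locus that starts inside the RefSeq gene (107113455 to 107198103). It stood at 3671, 3584 and 3394 RPM in GKAO controls and 3480, 3399 and 3325 in G9a cKO. It was at 2190, 2374 and 2417 RPM in GKAQ controls and 2471 and 2489 in cDKO. The G9a cKO change of -0.06 (SE 0.038, limma adjusted p = 0.244) and the cDKO change of 0.09 (SE 0.0425, adjusted p = 0.219) were not called, although both cDKO libraries lay above the GKAQ controls. Against all 6 controls pooled these would read 0.24 and -0.21, with signs set by the difference between the control series.

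Nlrp2, an NLR protein of the same family, is at chr7:5297854-5351073, and its locus overlaps an opposite-strand locus by 532 bases. It stood at 372, 344 and 378 RPM in GKAO controls and at 352, 375 and 387 in G9a cKO. It was at 429, 490 and 443 RPM in GKAQ controls and at 352 and 512 in cDKO. The 2 cDKO libraries lay on either side of all 3 controls. The changes were 0.03 (SE 0.0825) and -0.09 (SE 0.0923), and neither was called (limma adjusted p = 0.853 and 0.565). The cDKO value turned to 0.18 without cDKO replicate 1 and to -0.36 without replicate 2, where it was called (limma adjusted p = 0.0272).

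Zar1, at chr5:72574930-72581512, was at 465, 490 and 466 RPM in GKAO controls and at 436, 448 and 440 in G9a cKO, where all 3 mutant libraries lay below the controls. It was at 454, 460 and 478 RPM in GKAQ controls and at 424 and 473 in cDKO, which overlapped. The changes of -0.10 (SE 0.0782) and -0.05 (SE 0.0875) were not called (limma adjusted p = 0.348 and 0.694).

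The loci placed by identifier or position followed. Tle6, a transcriptional co-repressor-like partner of NLRP5 and OOEP, ranged over 1398 to 1577 RPM in GKAO controls and 1446 to 1642 in G9a cKO. It ranged over 1327 to 1526 RPM in GKAQ controls and stood at 1345 and 1365 in cDKO. Its changes were 0.05 and -0.08, not called, and its groups overlapped. With centring on detected loci the cDKO change of Tle6 was -0.17 and was called (limma adjusted p = 0.034). Khdc3, a KH-domain protein of the complex, stood at 428, 383 and 335 RPM in GKAO controls and at 338, 358 and 391 in G9a cKO. It was at 583, 593 and 653 RPM in GKAQ controls and at 624 and 622 in cDKO. Its changes in the mutants were -0.07 and 0.03. The Ooep and Dppa5a locus stood at 481, 516 and 539 RPM in GKAO controls and at 403, 430 and 484 in G9a cKO, a change of -0.22 (SE 0.0753) that was not called (limma adjusted p = 0.111). It was called with voom weights (-0.23, limma adjusted p = 0.0407), with the title number as a block (-0.27, 0.021), with all 6 controls pooled (-0.26, 0.0451) and without G9a cKO replicate 3 (-0.30, 0.0412), but not with its own variance. The locus named Ooep on the opposite strand, which overlaps it by 1089 bases, changed by -0.27 (SE 0.0845, limma adjusted p = 0.0615). The Ooep and Dppa5a locus stood at 512, 558 and 552 RPM in GKAQ controls and at 553 and 558 in cDKO, which overlapped, with a change of 0.04. The opposite-strand locus was at 402 to 416 RPM in GKAQ controls and at 419 and 445 in cDKO, a change of 0.07 that was not called (limma adjusted p = 0.62).

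Counted over all 9 loci, mutant and control libraries did not overlap at 3 in G9a cKO (Nlrp5, Padi6 and Zar1), where 33.6% of the abundant loci were so separated. They did not overlap at 3 in cDKO (Nlrp14, Padi6 and Zbed3), against 62.1%. These shares are near the background or below it.

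The widest differences among these genes lay between the GKAO and GKAQ control series, at Nlrp14 and Khdc3. Of the 6 loci, 3 were called, against 3.87% of all loci and 50.4% of the abundant ones. Nlrp14 was lower in GKAQ controls by 0.61 on the log2 scale (log2 fold change -0.61, SE 0.038, limma adjusted p = 3.07e-54), and it remained past the threshold with its own variance (adjusted p = 0.00757). Nlrp2 was higher by 0.31 (SE 0.0825, limma adjusted p = 0.00594), but not with its own variance (adjusted p = 0.45). Nlrp5 changed by -0.13 (SE 0.0339, limma adjusted p = 0.00599), with overlapping libraries and an own-variance adjusted p of 0.45. By identifier, Khdc3 was higher by 0.68 (SE 0.0776, limma adjusted p = 1.15e-15, own variance 0.0414). The libraries of the 2 series did not overlap at Nlrp14, Nlrp2 and Khdc3, which is 3 of 9 loci against 62.6% of the abundant loci. The differences of Padi6 (-0.10), Zbed3 (0.06), Zar1 (-0.03), Tle6 (-0.07) and Ooep (0.08) were not called. Both sets of controls are titled WT, but their column headers differ, G9a-Ctrl for GKAO and Ctrl for GKAQ. What separates the series was not tested.

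**Figure D3:**
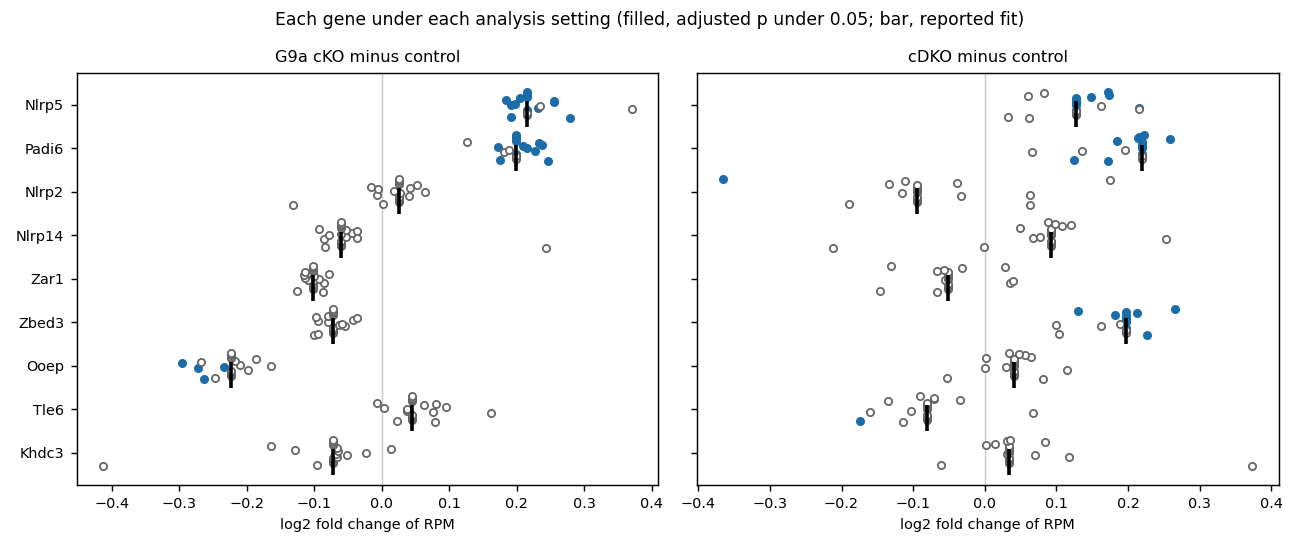
Log2 fold change of RPM (horizontal axis) of each gene under each analysis setting (points; filled, adjusted p under 0.05) with the reported fit (bar), for G9a cKO and cDKO. Nlrp5 in G9a cKO was called in 16 of 20 alternatives and Padi6 in 15, and in cDKO Padi6 was called in 15, Zbed3 in 14 and Nlrp5 in 11. These alternatives include left-out libraries of the other title prefix, which could not move the fold change. The counts therefore overstate how well a call held.

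Genes known or proposed to act with the complex were read from a list of 31, of which 26 matched a locus. In G9a cKO 0 of the 26 were called by limma, with 3 at an unadjusted p under 0.05 and 0 called with voom weights or each locus's own variance. In all loci 1.05% were called higher and 0.737% lower there. In cDKO 3 of the 26 were called higher and 3 lower, where 4.32% of all loci were called higher and 2.02% lower. Of the 26, 15 are among the abundant loci, and 3 of these 15 were called higher and 2 lower. Among all abundant loci 9.65% were called higher and 30.4% lower. With each locus's own variance 1 of the 26 was called. Skp1a, a subunit of SCF ubiquitin ligases, rose by 0.29 (SE 0.0459, limma adjusted p = 8.67e-08) and Khdc1c by 0.29 (adjusted p = 0.00148). Spin1, a chromatin reader of the oocyte, changed by -0.24 (adjusted p = 8.75e-06) and Nlrp4e by -0.72 (adjusted p = 0.00149). Between the control series 2 of the 26 were called higher in GKAQ and 9 lower, against 1.96% and 1.91% of all loci. Of the abundant loci 50.4% were called there in either direction.

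Other maternal-effect genes formed a list of 35, of which 29 matched. In G9a cKO 2 were called, both lower: Dppa3, which protects maternal chromatin from demethylation, changed by -0.36 (SE 0.07, limma adjusted p = 8.38e-05) and Btg4, an adaptor for maternal mRNA decay, by -0.33 (adjusted p = 0.000976). Of the 29, 7 had an unadjusted p under 0.05, 2 were called with voom weights and 0 with each locus's own variance. Against this stand the 0.737% of all loci and 7.29% of the abundant loci called lower. In cDKO 9 were called lower and 0 higher; of the 29, 13 had an unadjusted p under 0.05, 8 were called with voom weights and 2 with each locus's own variance. Called lower were 2.02% of all loci but 30.4% of the abundant ones. Of the 29 matched genes, 9 are among the abundant loci, and 6 of these 9 were called lower. Dnmt1, the maintenance DNA methyltransferase, stood at 9000 RPM in GKAQ controls and 6019 in cDKO, a change of -0.58 (SE 0.0286, limma adjusted p = 3.57e-86). Npm2, a nucleoplasmin of the oocyte nucleus, changed by -0.37 (adjusted p = 2.58e-08) and Dppa3 by -0.41 (adjusted p = 1.51e-05), and Spin1, also in this list, is given above.

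Regulators of oocyte transcription, including Figla and Nobox, formed a list of 13, all matched. In G9a cKO 1 was called, Stat3, higher by 0.49 (SE 0.101, limma adjusted p = 0.000316), where 1.05% of all loci were called higher. Voom weights also called 1 and each locus's own variance 0. In cDKO 4 were called higher and 1 lower, against 4.32% and 2.02% of all loci, with 5 called by voom weights and 1 with each locus's own variance. Only 2 of the 13 are among the abundant loci, and 1 of these was called higher. Among all abundant loci 9.65% were called higher and 30.4% lower. Stat3 was higher by 0.77 (adjusted p = 2.43e-09), Sub1 by 0.40 (adjusted p = 0.000568) and Sohlh2, a growth-stage regulator, by 2.00, with 6 to 18 reads per GKAQ control and 30 to 48 per cDKO library. Foxo3, which restrains follicle activation, changed by -0.39 (adjusted p = 0.00115).

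The nearest annotated loci of other genes on either side of each of the 6 loci were also read. Each lies on the strand of its own gene, which need not be that of the member. Of these 12 neighbours, 1 was called in a mutant, Nlrp4e beside Nlrp5, in cDKO, where 6.34% of all loci were called. The same Nlrp4e call is also counted in the lists of genes acting with the complex and of other maternal-effect genes. Rcc2 and Padi4, which flank Padi6, changed by 0.40 and -0.37 in G9a cKO and by -0.14 and 0.25 in cDKO, and none of these was called (limma adjusted p = 0.147, 0.576, 0.579 and 0.74). Padi4 stood at 0.456 RPM.

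For each gene but Zar1 the annotated locus with the closest pattern over the 11 libraries was found as the smallest root mean square difference of mean-centred log2 RPM. Nlrp14 was closest to Fbxw21, an F-box gene of the oocyte (0.0596, where the pattern of Nlrp14 itself has a root mean square of 0.276). The others are given in the same way, each with the root mean square of the gene's own pattern second. Ooep was closest to H1foo, the oocyte linker histone (0.0491, 0.152), and Tle6 to Zp1 of the zona pellucida (0.061, 0.0987). Nlrp5 was closest to Senp3 (0.0713, 0.146), Padi6 to AY512915 (0.0538, 0.133) and Zbed3 to Fbxo28 (0.0675, 0.121). Khdc3 was closest to Pnrc1 (0.117, 0.377) and Nlrp2 to Ube2d3 (0.0596, 0.188). Each was the closest of 6939 candidates (6940 for Tle6), so these values are descriptions.

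H3K9me2 over the loci was read as RPM per 10 kb window in windows that overlap each locus. The 6 libraries had 1109191 to 19128881 reads, and values show only how reads were distributed along the genome, not the total amount of the mark. In controls the 9 loci held 2.57 (Nlrp5) to 3.44 (Tle6) RPM per window, against a median of 3.77 over 14932 loci, and all 9 lay below that median.

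limma called 0 of the 6 loci found by symbol in either mutant, against 11.3% of loci in G9a cKO and 2.65% in cDKO. Before adjustment, p was under 0.05 for 2 of them in G9a cKO (Nlrp5 and Nlrp2) and for 0 in cDKO. Among the 3 loci placed by identifier or position 0 were called, with Tle6 and Khdc3 under an unadjusted 0.05 in G9a cKO and Tle6 in cDKO. The members had few reads, and in simulated data at their depth this test missed nearly all changes of 2-fold, so a change of that size was not detectable and the 0 does not show that the mark stayed the same. Nlrp2 stood at 3.00 and 2.99 RPM per window in the control pair, then 4.38 and 4.38 for G9a cKO, and 3.81 and 3.26 for cDKO, from 34 to 400 reads. Nlrp5 stood at 2.29 and 2.88 RPM per window in the control pair, then 3.69 and 3.48 for G9a cKO, and 2.98 and 3.26 for cDKO. Padi6 stood at 3.55 and 2.68 RPM per window in the control pair, then 4.85 and 3.61 for G9a cKO, and 4.45 and 4.96 for cDKO. At Nlrp5, Padi6, Nlrp2 and Tle6 all 4 mutant libraries lay above both controls, as at 22.7% of the 14932 loci, and at Ooep all 4 lay below, as at 12% of loci. Ooep stood at 3.19 and 3.24 RPM per window in the control pair, then 1.88 and 2.70 for G9a cKO, and 1.16 and 3.19 for cDKO, from 4 to 124 reads. Zar1 stood at 3.76 and 3.06 RPM per window in the control pair, then 3.50 and 5.41 for G9a cKO, and 2.61 and 3.19 for cDKO. Zbed3 stood at 3.23 and 2.94 RPM per window in controls and at 2.56 to 3.34 in the mutants, and Nlrp14 at 3.55 and 2.82 in controls and at 2.29 to 3.85. Khdc3 rested on 23 and 63 control reads, on 3 and 0 in the G9a cKO libraries and on 6 and 8 in the cDKO libraries. In G9a cKO, Tle6 was called with 10 kb added on each side (0.96, limma adjusted p = 0.0164) and without G9a cKO replicate 2 (1.08, adjusted p = 0.0433). Khdc3 was called lower without G9a cKO replicate 1 (adjusted p = 0.0194), where the remaining library had 0 reads.

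**Figure D4:**
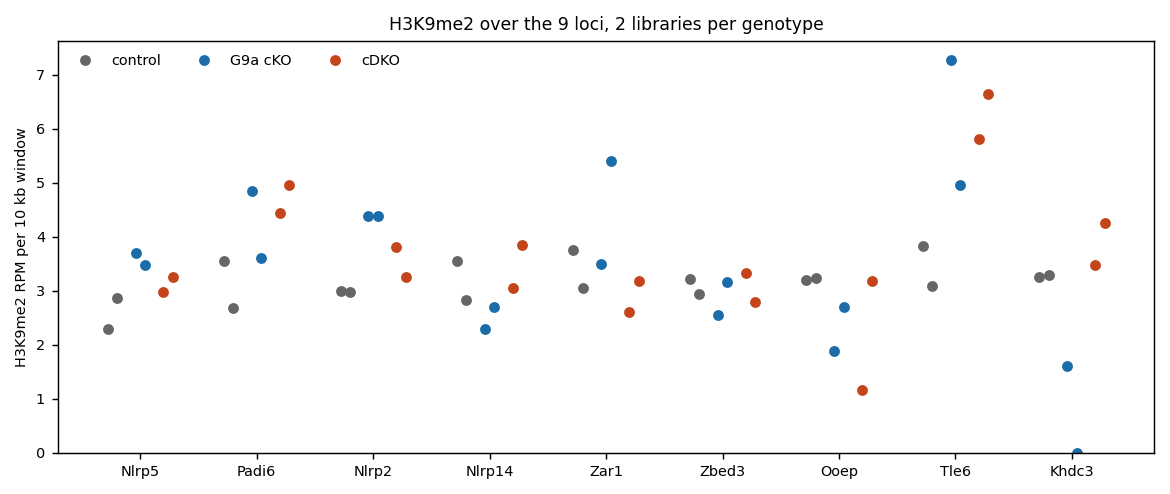
H3K9me2 in RPM per 10 kb window (vertical axis, from 0) over each of the 9 loci, with 1 point per library and 2 libraries per genotype. Tle6 has its 4 mutant libraries (4.96 to 7.27) above both controls (3.83 and 3.08), and the G9a cKO points of Khdc3 rest on 3 and 0 reads.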

How the data were processed

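Per the submitters' processing notes, Trim Galore, HISAT2 2.1.0, Bowtie2, Bismark 0.19.0 and GRCm38 were used, with no roles given. The counting method is not given in the sources used here. The authors deposited log2 values per library. From the values these are log2 RPM with 0.9 read in place of 0, and whole reads were recovered for 100% of values in each library (tolerance 0.01 read plus 0.001 of the value). The 9 genes and all lists were chosen with earlier results of these data known.

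limma 3.58.1 in R 4.3.3 (package data.table, version 1.17.8) fitted a mean per group over 11 RNA libraries, with a variance trend and robust moderation, over 38540 loci with no filter. Because 0 reads become 0.9 read, empty loci take values set by depth and enter that trend. For H3K9me2, reads were summed over windows of 10 kb overlapping each annotated locus, and loci with at least 10 reads were tested. The H3K9me2 fit was to use a variance trend on level. Tested on simulated data, that fit found none of the differences put in, so the trend was changed to reads per locus. The reported H3K9me2 fit therefore departs from the design, and the original is an alternative: it called 0 loci in either mutant. In both tests on simulated data the differences were moved to more abundant loci after a first run had found too few, so they were found well only at abundant RNA loci and deep H3K9me2 loci. In the H3K9me2 file, 4 columns match no sample and were not used. Input, IgG and bisulphite samples were not analysed here.

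All 9 genes were to be named in every comparison. Of the other lists the called genes are named, up to 4 per list and mutant by adjusted p. The locus closest in pattern to Zar1 is not reported here. Upstream sequences are from RefSeq (GRCm38), where 8 of the 9 genes matched and Nlrp14 did not. Alternatives changed scaling, loci tested, variance, weights, controls, title-number block and left-out libraries. Figures used Python 3.11.15, pandas 2.3.3, numpy 2.4.6 and matplotlib 3.10.9.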

Additional observations from a re-analysis of the deposited data

Results flagged for a closer look

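The Zbed3 effect in cDKO exceeded its effect in G9a cKO by 0.27 on the log2 scale (SE 0.0471), a difference between the mutants that passed the interaction test (limma adjusted p = 1.32e-05). Both cDKO libraries lay above their controls, while the G9a cKO libraries overlapped theirs. Over 18 alternatives the value ranged from 0.16 to 0.34 and 13 were past the threshold, with adjusted p from 1.65e-08 to 0.744. It was not called with each locus's own variance (adjusted p = 0.215).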

How the results depend on the processing

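The call counts over the 6 genes found by symbol rest on small changes and on the variance model. In G9a cKO the 2 calls became 0 with each locus's own variance, without trend and robust moderation, with quantile normalization and with voom weights. In cDKO the 3 calls became 0 under those 4 settings and 1 with centring on detected loci and with the title number as a block. The 1 interaction call became 0 with own variance, without trend and robust moderation, with quantile normalization and with the block. The 3 calls between control series became 1 with own variance and 0 without trend and robust moderation and with quantile normalization. Leaving out 1 library in turn gave 1 to 2 calls in G9a cKO (1 without GKAO control replicate 3), 2 to 4 in cDKO, 1 for the interaction and 2 to 4 between controls. H3K9me2 calls became 2 in G9a cKO with loci extended by 10 kb (Nlrp5 and Nlrp2; Tle6, placed by position, was called too) and otherwise stayed at 0, including without each library. Over all loci the counts moved from 689 to between 30 and 1197 in G9a cKO, from 2444 to between 570 and 2473 in cDKO, from 1490 (3.87% of loci) to between 0.283% of loci (without trend and robust moderation) and 1913 loci between controls, with 146 under quantile normalization, and from 417 to between 30 and 14705 for the interaction, the last without GKAQ control replicate 1. For H3K9me2 they moved from 1690 to between 0 and 2645 in G9a cKO and from 395 to between 0 and 1720 in cDKO, with 0 under the variance trend on level. The causes were not tested.

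No change of sign concerned a value called in the reported fit. Tle6 in cDKO was not called there, was called at -0.17 with centring, and had the other sign with quantile normalization. With all 6 controls pooled, Nlrp14 was -0.21 in cDKO and 0.24 in G9a cKO and Nlrp2 was 0.063 and -0.13. With centring, Khdc3 was -0.061, Nlrp14 -0.00129 and Ooep -0.053 in cDKO, and the interaction -0.0504 for Padi6 and -0.0201 for Zar1. With quantile normalization, Tle6 was 0.068 and Zar1 0.036 in cDKO, the control difference 0.13 for Padi6 and -0.11 for Zbed3, and the Padi6 interaction -0.11. With the block, Nlrp2 was 0.063 in cDKO, -0.00688 in G9a cKO and 0.0702 for the interaction, Zar1 0.039 in cDKO and the Padi6 interaction -0.091. Over left-out libraries, G9a cKO values spanned 0 for Khdc3 (-0.165 to 0.0133), Nlrp2 (-0.0165 to 0.0643) and Tle6 (-0.00688 to 0.0952), cDKO values for Nlrp2 (-0.365 to 0.175) and Zar1 (-0.132 to 0.0277), and interactions for Padi6 (-0.0175 to 0.0928), Nlrp2 (-0.391 to 0.149) and Zar1 (-0.0289 to 0.130). H3K9me2 signs turned in cDKO at Khdc3 (-0.0234) and Zbed3 (0.155) with 10 kb added, at Nlrp14 with centring (-0.0167) and at Nlrp2 with mean log2 values (-0.0312). Over left-out H3K9me2 libraries, Nlrp14 (-0.0546 to 0.284) and Zbed3 (-0.143 to 0.115) spanned 0 in cDKO and Zbed3 (-0.268 to 0.0346) in G9a cKO. Replicate numbers were given in accession order and pair nothing, but some libraries share a title number, and these numbers were fitted as a replicate block: 2 calls in G9a cKO stayed 2. The blocked cDKO effect rests on 1 control and 1 cDKO library of number 55. The cDKO and interaction counts given above for the block are therefore not a replicated test. Summing several loci of a member was not run, since each has 1 matching locus.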
